A study of Mus musculus with 8 samples.

Results

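The immunoglobulin genes detected in the kidney RNA were the rows named as a kappa, lambda or heavy variable gene, a kappa joining gene, an immunoglobulin constant gene or *Jchain* that reached 0.5 FPKM in any of the 8 libraries. FPKM counts the fragments of a gene per kilobase of its exons, corrected for the number mapped in the library. The rule took 205 of the 55401 genes of the deposited table and 205 of the 367 rows whose names match, since 162 matching rows stayed below the threshold and 138 of these were listed at 0 in every library. The members are 95 *Igkv*, 5 *Igkj*, 89 *Ighv* and 3 *Iglv* genes, *Igkc*, 3 *Iglc* genes, 8 heavy constant genes and *Jchain*, of which 5 are annotated as pseudogenes. The members were chosen by their name and by the highest of the 8 FPKM values, whatever the group, so the levels themselves are given as a description.

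Kidney RNA of 8 male diabetic mice had been sequenced, with 1 library per mouse. The rFGF4 group (mice 1, 2, 3 and 5) received recombinant fibroblast growth factor 4, an N-truncated human protein, and the vehicle group (mice 2, 3, 4 and 5, labelled as the db/db model) received phosphate-buffered saline, both by intraperitoneal injection. The dose was 1 mg/kg on alternate days over 8 weeks, from an age of 12 weeks by the figure legends of the paper. For mice given streptozotocin, its methods instead describe injection at 8 weeks of age and treatment after a further 8 weeks. The deposited labels name db/db mice, which lack a working leptin receptor and become obese and diabetic, whereas the text of the paper describes mice made diabetic with streptozotocin, and the files do not settle which were sequenced. The tissue is labelled kidney in every sample, although the library protocol in the same labels speaks of adipose RNA. A group without diabetes is not analysed here. Kidney epithelial markers were present in every library, with 9 listed genes summing to 1239 to 2380 FPKM under rFGF4 and 1560 to 2213 FPKM under vehicle. The lowest sum was that of rFGF4 mouse 1.

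An antibody is built from paired heavy and light chains, and each chain joins a variable domain to a constant domain. In each developing B cell, a variable segment is joined to a joining segment at a kappa or lambda locus, and to a joined diversity and joining segment at the heavy locus, so that every B cell and its offspring carry their own combination of variable genes. B cells carry IgM and IgD on the surface, class switching replaces these by IgG, IgA or IgE, and plasma cells secrete antibody in large amounts and hold most of their RNA as immunoglobulin transcripts. The kidney has few B cells and plasma cells in health, and they accumulate in inflamed interstitium.

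The reference sequences of genes that led a library are shown first, because neighbouring variable genes are nearly the same and their reads are hard to assign. *Igkv1-135* had the highest kappa variable FPKM in vehicle mice 3 and 5, and *Igkv1-133* is its closest relative, at 96.7% identity over the coding sequence. *Igkv1-110* led in rFGF4 mouse 1 and *Igkv1-117* in rFGF4 mouse 3, with 97.2% identity between them. The lambda pair *Iglv1* and *Iglv2* shared 96.9% of bases. The last 300 coding bases of each gene are given 5′ to 3′ from GENCODE M21 on GRCm38, at chr6:67610209-67610508, chr6:67725362-67725661, chr6:68270968-68271267 and chr6:68121528-68121827 on the plus strand and at chr16:19085017-19085316 and chr16:19260401-19260700 on the minus strand. All 6 stretches lie in the second coding exon, and capitals mark the bases that differ within each pair when the stretches are set side by side without gaps, 11 in *Igkv1-135* and *Igkv1-133*, 10 in *Igkv1-110* and *Igkv1-117* and 8 in each lambda gene.
Igkv1-135: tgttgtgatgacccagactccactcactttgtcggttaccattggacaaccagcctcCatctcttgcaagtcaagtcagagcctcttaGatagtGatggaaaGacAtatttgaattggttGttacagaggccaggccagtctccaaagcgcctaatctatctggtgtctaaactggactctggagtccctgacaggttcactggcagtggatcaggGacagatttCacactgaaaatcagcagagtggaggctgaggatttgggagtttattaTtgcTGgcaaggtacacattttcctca
Igkv1-133: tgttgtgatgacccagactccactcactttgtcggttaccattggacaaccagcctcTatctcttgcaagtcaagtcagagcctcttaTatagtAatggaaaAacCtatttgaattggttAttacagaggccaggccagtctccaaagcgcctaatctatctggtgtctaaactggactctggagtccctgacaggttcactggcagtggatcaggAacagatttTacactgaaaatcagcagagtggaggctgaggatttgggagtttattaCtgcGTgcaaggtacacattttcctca
Igkv1-110: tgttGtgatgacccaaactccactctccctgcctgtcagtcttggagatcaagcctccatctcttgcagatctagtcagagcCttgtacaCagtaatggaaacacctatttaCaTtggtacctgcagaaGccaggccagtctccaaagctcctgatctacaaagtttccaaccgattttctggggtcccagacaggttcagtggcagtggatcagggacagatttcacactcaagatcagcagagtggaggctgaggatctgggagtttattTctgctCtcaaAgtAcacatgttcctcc
Igkv1-117: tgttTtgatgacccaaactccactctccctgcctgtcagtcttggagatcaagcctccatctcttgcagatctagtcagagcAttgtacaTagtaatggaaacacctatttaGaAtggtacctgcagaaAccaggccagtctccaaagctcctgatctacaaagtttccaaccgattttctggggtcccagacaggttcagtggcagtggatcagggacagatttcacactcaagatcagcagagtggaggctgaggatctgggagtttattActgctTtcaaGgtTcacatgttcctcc
Iglv1: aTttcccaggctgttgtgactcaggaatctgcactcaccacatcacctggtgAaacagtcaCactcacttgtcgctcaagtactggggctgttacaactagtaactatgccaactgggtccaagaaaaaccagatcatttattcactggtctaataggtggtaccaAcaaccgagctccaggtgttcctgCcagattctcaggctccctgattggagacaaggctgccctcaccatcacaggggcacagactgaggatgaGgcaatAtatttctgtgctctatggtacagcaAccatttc
Iglv2: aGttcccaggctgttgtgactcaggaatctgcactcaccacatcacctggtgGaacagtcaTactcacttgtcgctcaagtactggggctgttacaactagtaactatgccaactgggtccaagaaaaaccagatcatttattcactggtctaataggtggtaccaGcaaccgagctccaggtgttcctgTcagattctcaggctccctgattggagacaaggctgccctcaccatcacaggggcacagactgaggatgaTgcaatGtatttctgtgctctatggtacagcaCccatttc

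The 5 kappa joining segments are shown because they are the shortest members. They lie in a row before *Igkc* on the plus strand, from chr6:70722562-70722599 for *Igkj1* to chr6:70723886-70723923 for the coding bases of *Igkj5*. Capitals mark the 20 bases that all 5 share when the last 38 coding bases are set side by side without gaps.
Igkj1: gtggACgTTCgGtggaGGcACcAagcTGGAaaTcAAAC
Igkj2: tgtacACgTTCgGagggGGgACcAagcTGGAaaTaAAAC
Igkj3: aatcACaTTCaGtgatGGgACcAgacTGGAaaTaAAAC
Igkj4: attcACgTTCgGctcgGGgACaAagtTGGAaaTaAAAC
Igkj5: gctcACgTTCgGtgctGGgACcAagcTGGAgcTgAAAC

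Of the 182 variable members with a coding sequence, 88 had another variable gene at 95% identity or more and 139 at 90% or more, with a median identity to the closest relative of 94.9%. The method by which the authors split reads between such genes was not given in the sources used here. The FPKM of a single variable gene is therefore uncertain by what its relatives hold. Identity among the constant genes was not compared. Rearranged genes also carry somatic mutations and a joint that these reference sequences do not hold.

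Immunoglobulin RNA differed by orders of magnitude between mice of the same group. The 205 genes summed to 4725.5, 1452, 137 and 1352 FPKM in rFGF4 mice 1, 2, 3 and 5, and to 99.8, 2529, 42.9 and 40968 FPKM in vehicle mice 2, 3, 4 and 5. Vehicle mouse 5 stood above all other libraries, vehicle mice 2 and 4 and rFGF4 mouse 3 were low, and the groups overlapped. The median was 1402 FPKM under rFGF4 and 1314 FPKM under vehicle, while the mean ± SD was 1917 ± 1966 and 10910 ± 20072 FPKM (n = 4 each). The log2 ratio of the medians, 0.09, was 3.81 without vehicle mouse 3 or 5 and -0.85 without vehicle mouse 2 or 4. As a share of all FPKM in a library, the members took 8.51% in vehicle mouse 5 and between 0.00792% and 1.21% in the other 7.

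**Figure D1:**
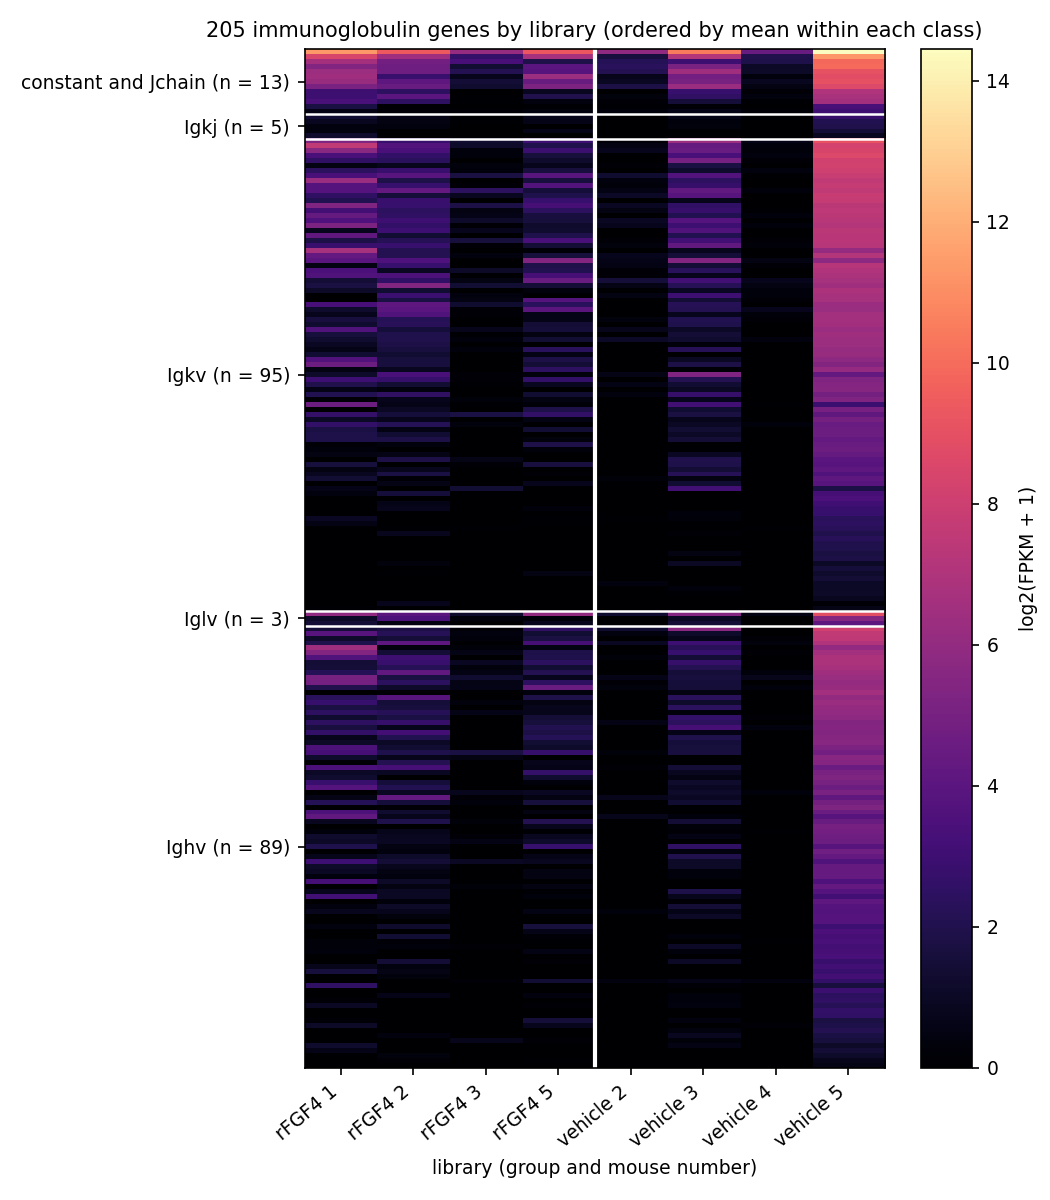
Each row is 1 of the 205 immunoglobulin genes, ordered by mean within 5 classes, each column is 1 library, and colour gives log2(FPKM + 1). The column of vehicle mouse 5 is bright throughout, with all 205 genes above 0, while 146 and 152 genes are listed at 0 in vehicle mice 2 and 4.

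Vehicle mouse 5 held the highest value of 194 members, rFGF4 mouse 1 of 7, rFGF4 mouse 2 of 2 and vehicle mouse 3 of 2. At 0.5 FPKM or more, 130, 131, 36 and 106 members were detected in rFGF4 mice 1, 2, 3 and 5, against 27, 127, 10 and 204 in vehicle mice 2, 3, 4 and 5. Members entered by their highest value, which lay in vehicle mouse 5 for 194 of them. The count of vehicle mouse 5 and its ratios to other libraries below were thus shaped by the rule, and nothing is read from them. Of the 205 members, 38 reached the threshold in vehicle mouse 5 alone, and 1 (*Igkv4-81*, named after its values were seen) in rFGF4 mouse 2 alone. Those that reached it in all 8 libraries were 7 genes, namely *Igkc*, *Igha*, *Ighm*, *Ighg1*, *Ighg2b*, *Jchain* and *Ighv3-6*. For the 191 members above 0 in another library, the value in vehicle mouse 5 was a median of 8.25 times the highest of the other 7, and it was over 10 times that value in 76 of them, while 14 members were listed at 0 in the other 7.

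The low values did not settle the relative depth of the libraries. Summed FPKM over all genes lay between 389407 and 552604. Read counts were not used here, so the counting error of a value is unknown. Batches of mice or of libraries were not given in the sources used here.

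*Igkc*, the single constant gene of the kappa light chain (chr6:70726435-70726966), was the most abundant member in every library. Its FPKM was 2639.7, 663, 68.0 and 623 in rFGF4 mice 1, 2, 3 and 5, and 57.6, 1416, 22.4 and 22334 in vehicle mice 2, 3, 4 and 5. The highest and the lowest value were both in the vehicle group, and the rFGF4 group lay between them. The mean ± SD was 998 ± 1127 FPKM under rFGF4 and 5958 ± 10937 FPKM under vehicle (n = 4 each). The difference of 0.20 on the log2(FPKM + 1) scale had a standard error of 2.14 (limma, p = 0.928, Benjamini-Hochberg adjusted p = 0.992, two-sided exact permutation p = 0.914). *Igkc* took 45.6% to 57.7% of the summed members in each library, so its share was steady while its level was not.

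The lambda constant genes were far lower. *Iglc1*, which pairs with *Iglv1* in most lambda chains, had 88.6, 6.09, 0.673 and 79.9 FPKM in rFGF4 mice 1, 2, 3 and 5, and 0.621, 28.6, 0.308 and 474 FPKM in vehicle mice 2, 3, 4 and 5. *Iglc2*, whose usual partner is *Iglv2*, reached 14.6 FPKM in rFGF4 mouse 2, above the 6.09 FPKM of *Iglc1* there, and stayed below *Iglc1* in the other libraries except vehicle mouse 4, where it had 0.351 against 0.308 FPKM. *Iglc3* was listed at 0 in rFGF4 mouse 3 and vehicle mouse 2 and had 127 FPKM in vehicle mouse 5. Kappa made up between 88.1% of light constant FPKM in rFGF4 mouse 5 and 98.9% in rFGF4 mouse 3, with 96.7% to 98.5% in the vehicle group. The lambda genes differed between groups by 0.38 for *Iglc1*, -0.27 for *Iglc2* and -0.92 for *Iglc3* on the log2(FPKM + 1) scale, with standard errors of 2.08, 1.47 and 1.51, and the smallest adjusted p of the 3 in limma was 0.949.

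**Figure D2:**
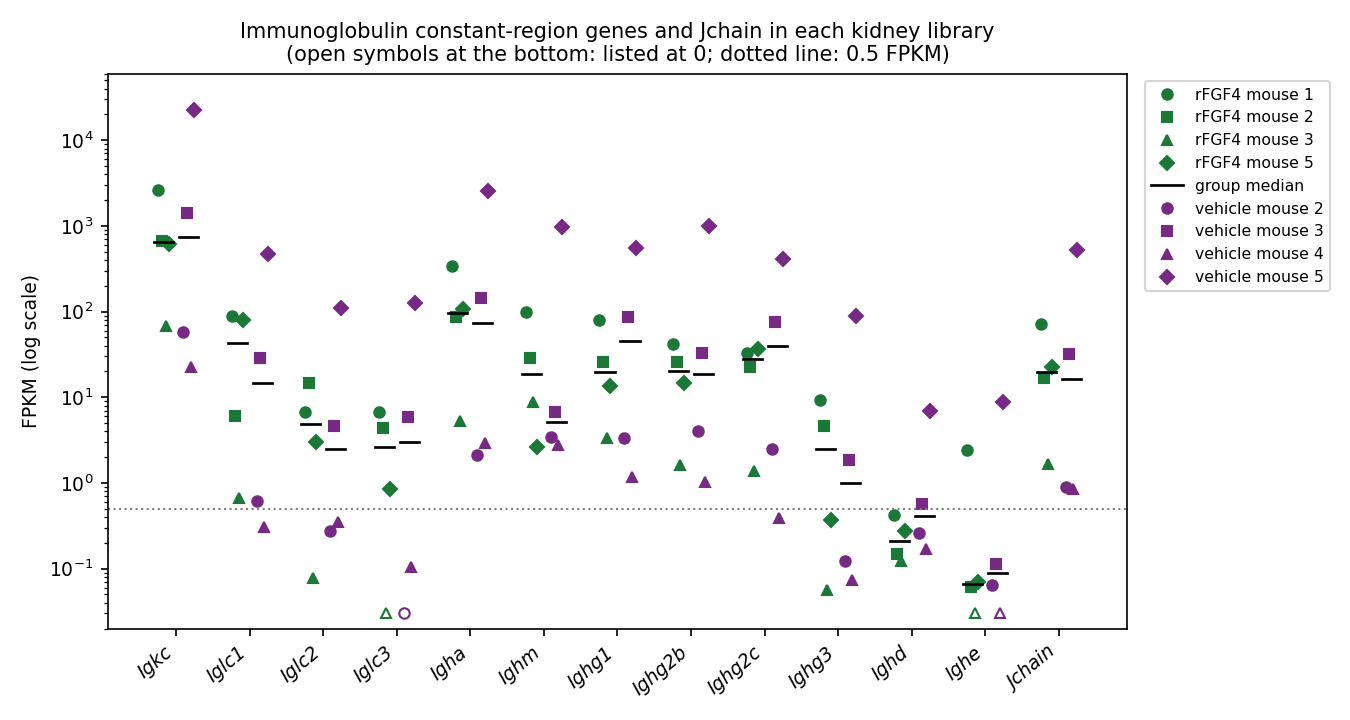
The vertical log axis gives FPKM of the 12 constant genes and *Jchain* in each library, with rFGF4-treated mice in green, vehicle-treated mice in purple, the median of each group as a black bar, and open symbols for values listed at 0. All 13 genes are highest in vehicle mouse 5, and in every gene the values of the groups overlap.

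Among the heavy constant genes, *Igha*, which encodes the IgA heavy chain of mucosal antibodies (chr12:113254830-113260236), was the most abundant in 6 of 8 libraries. It had 341, 86.0, 5.33 and 108 FPKM in rFGF4 mice 1, 2, 3 and 5, and 2.14, 143, 2.95 and 2541 FPKM in vehicle mice 2, 3, 4 and 5. The difference between groups was 0.55 with a standard error of 2.22 on the log2(FPKM + 1) scale (limma, p = 0.811, adjusted p = 0.975, exact permutation p = 0.800). The levels in vehicle mice 2 and 4 and in rFGF4 mouse 3 were all below 6 FPKM, and both groups held high and low mice.

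*Ighm*, the IgM heavy chain of unswitched B cells and early plasma cells (chr12:113418558-113422730), did not follow *Igha*. Its FPKM was 97.9, 29.0, 8.71 and 2.65 in rFGF4 mice 1, 2, 3 and 5, and 3.42, 6.76, 2.78 and 964 in vehicle mice 2, 3, 4 and 5. In rFGF4 mouse 5 and vehicle mouse 3, both with over 100 FPKM of *Igha*, *Ighm* was near the level of the mice with the least immunoglobulin RNA. The ratio of *Igha* to *Ighm* was 40.8 and 21.1 in these mice, against 0.612 to 3.48 in the other 6. *Ighm* differed between groups by -0.06 with a standard error of 1.84 on the log2(FPKM + 1) scale (limma, adjusted p = 0.998).

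The IgG genes, which encode the main antibodies of serum, held 26.9% to 40.3% of heavy constant FPKM under rFGF4 and 31.1% to 63.1% under vehicle. *Ighg1* had 79.4, 25.5, 3.31 and 13.6 FPKM in rFGF4 mice 1, 2, 3 and 5, and 3.39, 86.8, 1.16 and 558 FPKM in vehicle mice 2, 3, 4 and 5. *Ighg2b* had 41.3, 25.5, 1.62 and 14.6 against 4.04, 33.2, 1.04 and 992 FPKM in the same order, and it was the leading isotype of vehicle mouse 2. *Ighg2b* in vehicle mouse 5 was 24.0 times the highest other library, the largest such ratio among the constant genes and *Jchain*. *Ighg2c*, the IgG2 form of strains such as C57BL/6, had 32.9, 22.3, 1.39 and 36.7 against 2.52, 76.6, 0.391 and 406 FPKM. *Ighg3* was below 10 FPKM outside vehicle mouse 5, where it reached 89.5 FPKM. None of the 4 passed the test, with differences of -0.45, -0.73, -0.28 and -0.48 and standard errors of 1.76, 1.84, 1.81 and 1.45 on the log2(FPKM + 1) scale for *Ighg1*, *Ighg2b*, *Ighg2c* and *Ighg3*.

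*Ighd* and *Ighe* had the lowest means of the heavy constant genes and did not pass the filter for testing, although *Ighg3* was below *Ighd* in rFGF4 mouse 3 and vehicle mice 2 and 4. *Ighd*, which is expressed with *Ighm* on resting B cells, had 6.82 FPKM in vehicle mouse 5 and 0.124 to 0.565 FPKM in the other 7. *Ighe*, the IgE heavy chain, had 8.92 FPKM in vehicle mouse 5, 2.41 FPKM in rFGF4 mouse 1 and at most 0.114 FPKM in the other 6. Both of the libraries with the most kappa RNA were thus those with *Ighe* above 1 FPKM.

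**Figure D3:**
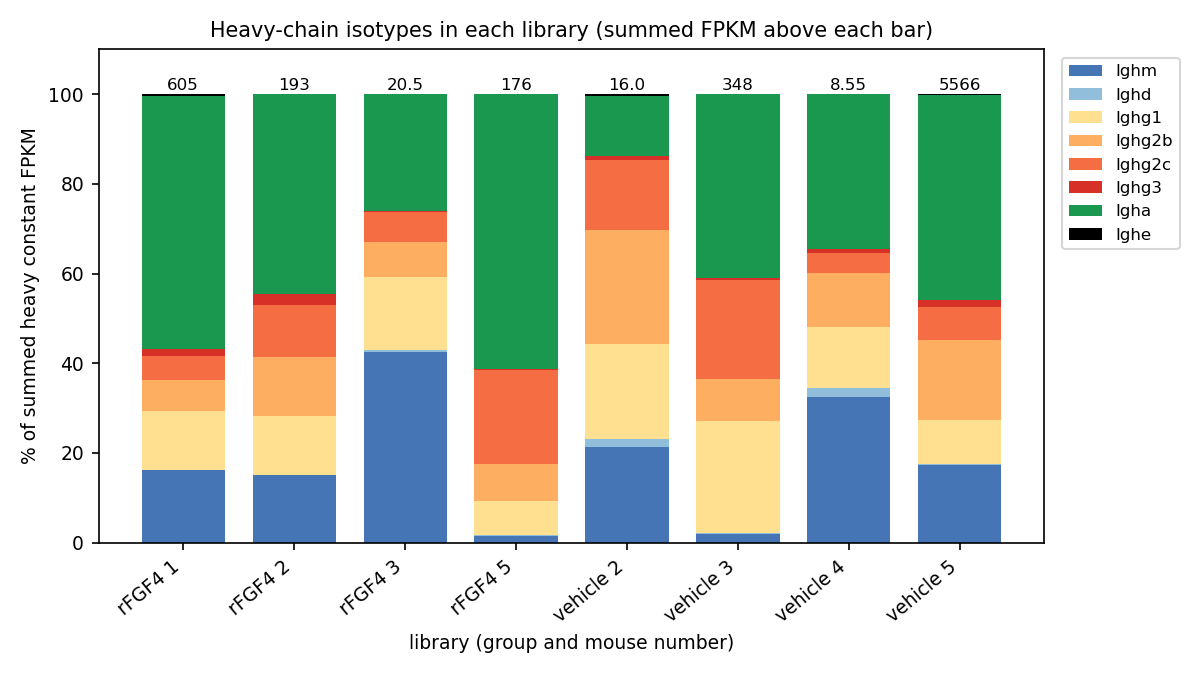
Stacked bars give the share of each heavy constant gene in the summed heavy constant FPKM of a library, with that sum written above each bar. *Igha* is the largest share in 6 libraries (at most 61.3%, in rFGF4 mouse 5), *Ighm* in rFGF4 mouse 3 (42.4%) and *Ighg2b* in vehicle mouse 2 (25.3%).

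*Jchain*, the small protein that links IgA dimers and IgM pentamers and is made by antibody-secreting cells (chr5:88519809-88527891), moved with *Igha*. It had 71.0, 16.6, 1.68 and 22.7 FPKM in rFGF4 mice 1, 2, 3 and 5, and 0.906, 31.7, 0.850 and 520 FPKM in vehicle mice 2, 3, 4 and 5. Its ratio to *Igha* was 0.193 to 0.315 under rFGF4 and 0.205 to 0.423 under vehicle, over a range in which *Igha* itself ran from 2.14 to 2541 FPKM. The group difference of *Jchain* was 0.11 with a standard error of 1.86 on the log2(FPKM + 1) scale (limma, adjusted p = 0.996).

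The kappa variable genes that led differed from mouse to mouse. *Igkv1-110* led in rFGF4 mouse 1 with 192 FPKM, or 22.5% of the summed *Igkv* FPKM of that library, and held 1.1% to 4.13% in the other 7. *Igkv8-30* led in rFGF4 mouse 2 with 40.7 FPKM, *Igkv1-117* in rFGF4 mouse 3 with 4.20 FPKM and *Igkv3-12* in rFGF4 mouse 5 with 42.4 FPKM. No kappa variable gene led in more than 1 of the rFGF4-treated mice. *Igkv3-5* led in vehicle mice 2 and 4, at 1.81 and 0.714 FPKM, and *Igkv1-135* led in vehicle mice 3 and 5, at 79.2 and 548 FPKM. *Igkv1-135* and *Igkv1-133*, the near-identical pair printed above, were not in a fixed ratio, with 79.2 against 39.9 FPKM in vehicle mouse 3, 548 against 18.7 FPKM in vehicle mouse 5 and 6.11 against 9.37 FPKM in rFGF4 mouse 2. *Igkv1-133* was chosen after its values were seen.

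The most abundant kappa variable genes by mean over all libraries were *Igkv1-135*, *Igkv4-59* and *Igkv1-110*, each with its highest value in vehicle mouse 5. *Igkv4-59* had 50.0, 9.39, 0.256 and 6.37 FPKM in rFGF4 mice 1, 2, 3 and 5, and 0.708, 21.2, 0.190 and 336 FPKM in vehicle mice 2, 3, 4 and 5. *Igkv3-12* was unlike most members in that vehicle mouse 5, at 53.8 FPKM, was close to rFGF4 mouse 5, at 42.4 FPKM, and to vehicle mouse 3, at 41.1 FPKM. The groups overlapped for each of these genes.

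How evenly the kappa variable genes were used was described by the effective number of genes, the inverse of the summed squared shares, which equals the number of genes if all are used alike. It was 11.5, 28.7, 17.6 and 18.0 in rFGF4 mice 1, 2, 3 and 5, and 20.5, 17.4, 18.6 and 39.2 in vehicle mice 2, 3, 4 and 5. The mouse with the most immunoglobulin RNA, vehicle mouse 5, had the most even use, and the next, rFGF4 mouse 1, the least even. The 5 leading *Igkv* genes held 53.4% of *Igkv* FPKM in rFGF4 mouse 1 and 23.3% in vehicle mouse 5. In libraries with few fragments from these genes the number is limited by detection, as 13 and 3 *Igkv* genes reached 0.5 FPKM in vehicle mice 2 and 4.

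Heavy variable genes likewise had a leader of their own in each rFGF4-treated mouse. *Ighv1-78* had 82.4 FPKM in rFGF4 mouse 1, or 21.2% of the summed *Ighv* FPKM, against 0.178 to 0.374 FPKM in the other rFGF4-treated mice. In vehicle mice 2, 3, 4 and 5 it had 0, 3.82, 0 and 60.4 FPKM. *Ighv10-1* led in rFGF4 mouse 2 with 18.6 FPKM, *Ighv14-2* in rFGF4 mouse 3 with 2.33 FPKM and *Ighv2-2* in rFGF4 mouse 5 with 22.6 FPKM. In these libraries the leader took 10.3%, 17.9% and 18.6% of *Ighv* FPKM.

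*Ighv6-3* led in vehicle mice 2, 3 and 5, with 21.5%, 32.1% and 8.87% of *Ighv* FPKM. Its level was 1.77, 2.51, 0.132 and 4.66 FPKM in rFGF4 mice 1, 2, 3 and 5, and 1.38, 52.1, 0 and 287 FPKM in vehicle mice 2, 3, 4 and 5, so the gene was listed at 0 in 1 vehicle-treated mouse and the groups overlapped. It had the largest group difference of the tested members, -2.30 with a standard error of 1.68 on the log2(FPKM + 1) scale (limma, p = 0.207, adjusted p = 0.920, exact permutation p = 0.400). The difference was -0.84 without vehicle mouse 5. Without vehicle mouse 4 the gene was called lower, as were 0.416% of all tested genes. *Ighv3-6*, the heavy variable member that reached 0.5 FPKM in all 8 libraries, led in vehicle mouse 4 at 0.652 FPKM.

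*Ighv1-39* and *Ighv1-7* ranked high by mean through vehicle mouse 5. *Ighv1-39* had 203 FPKM there and at most 13.7 FPKM elsewhere, in rFGF4 mouse 1. *Ighv1-7* had 181 FPKM there and at most 2.35 FPKM elsewhere, in rFGF4 mouse 5. The effective number of *Ighv* genes was 33.4 in vehicle mouse 5, 8.47 to 9.16 in the other vehicle-treated mice, and 12.6 to 21.2 in the rFGF4-treated mice.

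**Figure D4:**
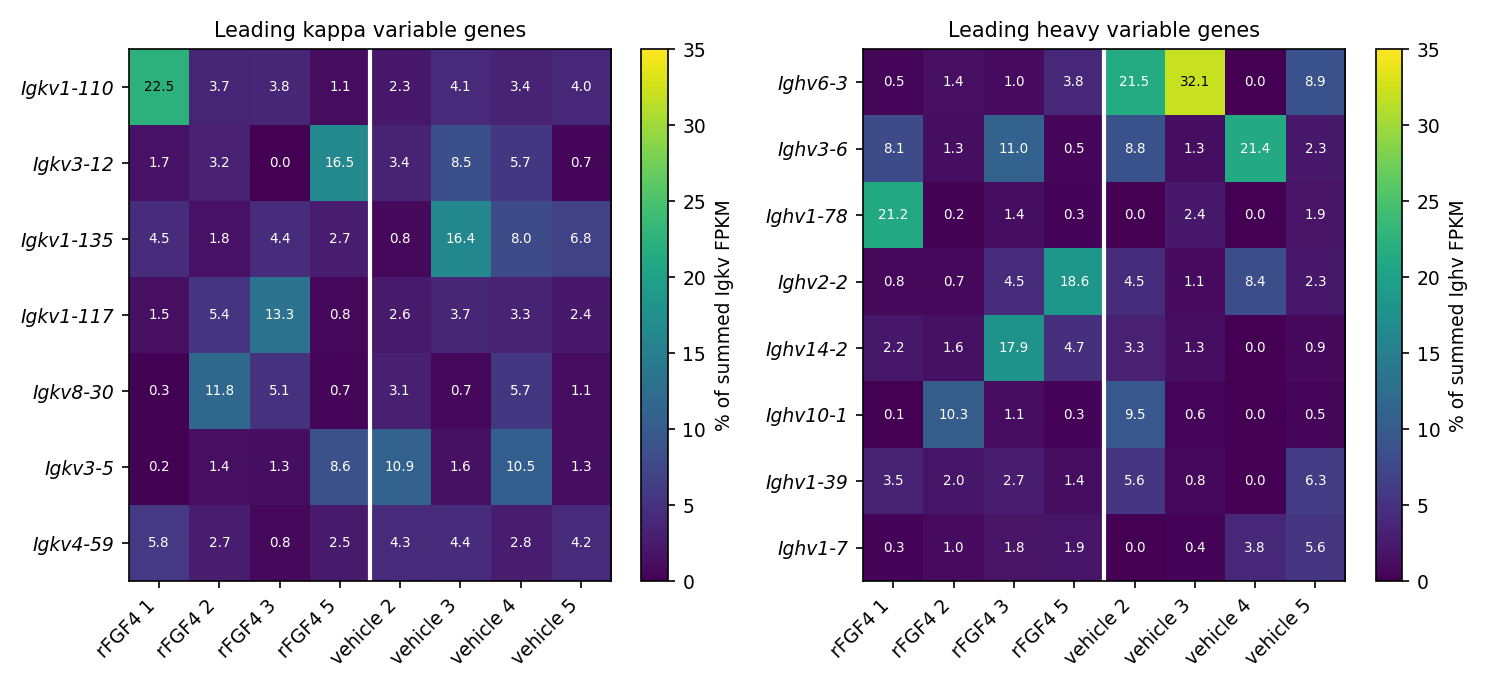
Each cell gives the share, in percent, of a leading variable gene (row) in the summed *Igkv* or *Ighv* FPKM of a library (column). Within each panel, the brightest cells fall in different columns for *Igkv1-110*, *Igkv3-12*, *Igkv1-117*, *Igkv8-30*, *Ighv1-78*, *Ighv14-2* and *Ighv2-2*, and *Ighv6-3* is bright in vehicle mice 2 and 3.

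By family, the *Ighv1* genes, the largest mouse heavy family with 47 members here, held 38.4% to 68.8% of *Ighv* FPKM under rFGF4 and 41.0% to 56.9% under vehicle. The 8 *Igkv3* genes ranged from 4.6% in rFGF4 mouse 1 to 35.4% in rFGF4 mouse 5.

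Of the lambda variable genes, *Iglv1* had 58.0, 15.6, 1.36 and 64.5 FPKM in rFGF4 mice 1, 2, 3 and 5, and 1.42, 44.3, 0.475 and 486 FPKM in vehicle mice 2, 3, 4 and 5. *Iglv2* had 1.17, 10.7, 0.257 and 0.212 against 0, 0.952, 0 and 45.97 FPKM. *Iglv2* was below *Iglv1* in every library, nearest to it in rFGF4 mouse 2, and the stretches printed above differ at 8 bases. *Iglv3*, with 57.6% identity to its nearest relative the most distant of the variable members, had 16.2 FPKM in vehicle mouse 5 and at most 1.70 FPKM elsewhere.

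The 5 kappa joining segments were low in all libraries, summing to 14.5 FPKM in vehicle mouse 5 and 4.35 FPKM in rFGF4 mouse 1, and were listed at 0 in vehicle mice 2 and 4. *Igkj5* was the highest at 5.64 FPKM in vehicle mouse 5. *Igkj1*, at 1.32 FPKM in rFGF4 mouse 1 and 0.854 FPKM in vehicle mouse 5, was listed at 0 in the other 6. Both were named after their values were seen. Their coding sequences are 38 or 39 bases long, so their FPKM rests on very little sequence.

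At the edge of the rule, the members with the lowest maximum were *Ighv12-3* and *Igkv4-51*, with 0.532 and 0.534 FPKM in vehicle mouse 5. The rows just outside were *Ighv5-2* and *Ighv1-43*, with 0.492 and 0.479 FPKM, also in vehicle mouse 5. All 4 were at 0 elsewhere except *Igkv4-51*, with 0.046 FPKM in rFGF4 mouse 1.

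The spread of the immunoglobulin genes within groups was wide, and is given as a description. Of the 205 members, 116 reached 0.5 FPKM in 4 or more libraries and were tested, 104 of them variable genes. Their median SD of log2(FPKM + 1) was 1.28 under rFGF4 and 2.90 under vehicle, against 0.286 and 0.235 for all 15150 tested genes. All 116 lay above the 95th percentile of that SD in the vehicle group (0.957), and 80 above it in the rFGF4 group (0.959), where 5% of all genes lie by definition. Without vehicle mouse 5, the median SD of the tested members in the vehicle group was 1.07, against 0.177 for all tested genes. Other immune genes were spread widely too, and *Lyz2*, the lysozyme gene of macrophages, named after its values were seen, ran from 17.8 to 1269 FPKM, with a standard error of 1.44 for its group difference on the log2(FPKM + 1) scale.

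The comparison of rFGF4-treated with vehicle-treated mice asked whether treatment went with a change of these genes in the diabetic kidney. With all 8 mice, 0 of the 116 tested members passed the threshold of p under 0.05 and a 1.5-fold change in limma, against 1.52% of all tested genes, and 0 had an unadjusted p under 0.05, against 4.62%. In none of the 116 were the groups separate, against 3.33% of all tested genes. The smallest adjusted p of a member was 0.920, and 0 of the 15150 genes had an adjusted p under 0.05. The median log2 fold change of the members was -0.41, with 28 above and 88 below 0 and a range from -2.30 to 0.72, and the median over all tested genes was 0.09. The median standard error was 1.38 for members and 0.189 for all tested genes, so changes of less than several-fold were not detectable in these genes with 4 mice per group.

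Without vehicle mouse 5, most of these differences had the opposite sign. The median log2 fold change of the 116 genes was then 0.92, with 106 above 0, and the median over all tested genes was 0.15. Of the members, 10 were then called higher in rFGF4-treated mice, or 8.62%, against 2.22% of all tested genes, and 0 were called lower, against 0.634%. None of the 10 had an adjusted p below 0.62, and they differed by 0.88 to 2.32 on the log2(FPKM + 1) scale. Vehicle mouse 5 held the highest value of 194 of the 205 members, so leaving it out had to raise the difference of nearly all of them, and the change of sign and the number called higher are given as a description from which nothing is read. The 10 are *Ighv5-4*, *Ighv14-2*, *Igkv6-14*, *Ighv14-4*, *Igkv6-32*, *Igkv19-93*, *Ighv1-7*, *Igkv16-104*, *Ighv3-1* and *Igkv17-127*, named after their values were seen.

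In 2 other fits, members were called lower in rFGF4-treated mice. Without vehicle mouse 4 this was 1 of the 116 (*Ighv6-3*), against 0.416% of all tested genes. With a replicate block for the mouse numbers it was 2 of the 116, against 0.528%. The block set rFGF4 mouse 1 and vehicle mouse 4 aside, as their numbers occur in 1 group only. These counts were not tested against the shares.

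*Ighv5-4* had the smallest p of the 10 called higher without vehicle mouse 5. It had 1.06, 0.899, 0.437 and 1.23 FPKM in rFGF4 mice 1, 2, 3 and 5, was listed at 0 in vehicle mice 2, 3 and 4, and had 24.2 FPKM in vehicle mouse 5. Without that mouse the groups did not overlap, and the difference was 0.91 (limma, adjusted p = 0.620), while with all mice it was -0.25 (limma, adjusted p = 0.975). *Igkv6-32* had the largest difference of the 10, 2.32, from 11.5, 10.4, 0.062 and 8.59 FPKM against 0.140, 0.673 and 0 FPKM in vehicle mice 2, 3 and 4, with 116 FPKM in vehicle mouse 5. Here rFGF4 mouse 3 was below vehicle mice 2 and 3, and the groups overlapped even without vehicle mouse 5. The 10 tested constant genes had differences of 0.59 to 2.47 without that mouse, the highest for *Igha*, and none of them was called.

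**Figure D5:**
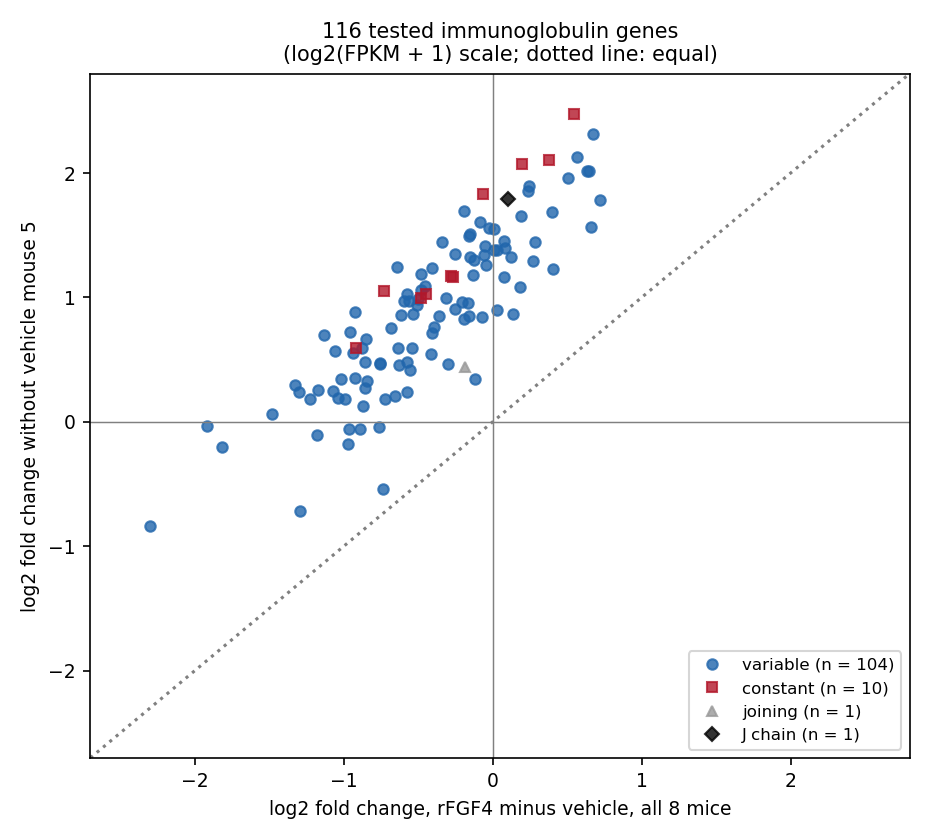
Each point is 1 of the 116 tested immunoglobulin genes, with the log2 fold change of rFGF4 against vehicle from all 8 mice on the horizontal axis and that without vehicle mouse 5 on the vertical axis. The points lie above the dotted line of equal values, and 106 are above 0 on the vertical axis against 28 on the horizontal axis.

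The listed B cell genes and most of the listed plasma cell genes were also highest in vehicle mouse 5. The 14 B cell genes were all highest in vehicle mouse 5, summing to 84.4 FPKM there, 1.09 to 3.07 FPKM in the other vehicle-treated mice and 1.69 to 11.1 FPKM in the rFGF4-treated mice. *Cd79a*, part of the B cell receptor, had 2.42, 0.258, 0.230 and 0.854 FPKM in rFGF4 mice 1, 2, 3 and 5, and 0.138, 1.03, 0.0954 and 30.6 FPKM in vehicle mice 2, 3, 4 and 5. *Ms4a1*, which encodes CD20, was at 0 in rFGF4 mice 2 and 3 and vehicle mouse 4 and had 1.88 FPKM in vehicle mouse 5. Only 2 of the 14 genes, *Cd79a* and *Cd79b*, were tested, with differences of -0.76 and -0.64 on the log2(FPKM + 1) scale and standard errors of 1.03 and 0.751. Without vehicle mouse 5 the differences were 0.38 and 0.19.

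Of 16 plasma cell genes, 12 were highest in vehicle mouse 5, and the list summed to 195 FPKM there, 49.5 to 97.5 FPKM in the other vehicle-treated mice and 60.3 to 156 FPKM under rFGF4. Of the 10 tested, 0 passed the threshold and 5 had a log2 fold change above 0, with a median of -0.01. Without vehicle mouse 5, 8 of the 10 were above 0, with a median of 0.31 against 0.15 over all tested genes. *Mzb1*, a chaperone for secreted antibody, had 2.86, 3.10, 1.99 and 1.12 FPKM in rFGF4 mice 1, 2, 3 and 5, and 1.77, 5.72, 0.800 and 19.7 FPKM in vehicle mice 2, 3, 4 and 5. *Tnfrsf17*, the survival receptor of plasma cells, was listed at 0 in rFGF4 mice 2, 3 and 5 and vehicle mouse 4, with 2.53 FPKM in vehicle mouse 5. *Pou2af1*, a coactivator of immunoglobulin transcription, had 12.97 FPKM in vehicle mouse 5 and at most 2.09 FPKM elsewhere, in rFGF4 mouse 1. *Xbp1*, a regulator of secretion that kidney epithelium also expresses, had 27.3, 27.9, 23.3 and 9.29 against 8.50, 11.6, 9.21 and 23.9 FPKM, and was not called with all mice (log2 fold change 0.69). It was called higher with array weights (1.01), without rFGF4 mouse 5 (1.04) and without vehicle mouse 5 (0.99, limma, adjusted p = 0.620). Without vehicle mouse 5, 2.22% of all tested genes were called higher, and *Xbp1* was the only plasma cell gene called. The share of all tested genes called with array weights or without rFGF4 mouse 5 is not given here, so nothing is read from these calls. *Sdc1*, also an epithelial gene, had 32.7 FPKM in rFGF4 mouse 1 and 18.1 FPKM in vehicle mouse 5. In bulk RNA, fewer cells of a type and less RNA per cell cannot be told apart, and no cells were counted.

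Other immune genes were high in vehicle mouse 5 as well, and their part in the result was not tested. Whether lymphoid tissue was part of the sample of vehicle mouse 5, which would bear on its sum and share of immunoglobulin RNA, was not tested. All 12 T cell genes and all 10 genes of lymphoid stroma and follicles were highest in vehicle mouse 5, with sums of 93.2 and 90.3 FPKM there, against 3.84 to 5.27 and 4.31 to 15.9 FPKM in the other vehicle-treated mice and 4.002 to 38.0 and 6.52 to 20.4 FPKM in rFGF4-treated mice. In vehicle mouse 3, with the third highest immunoglobulin sum, the T cell genes summed to 5.27 FPKM, near the 4.65 FPKM of vehicle mouse 2, while its sums of lymphoid stroma genes (15.9 against 4.58 FPKM), macrophage genes (357 against 49.3 FPKM) and B cell genes (3.07 against 1.09 FPKM) were above those of that mouse. *Cxcl13*, which draws B cells to follicles, had 21.3 FPKM in vehicle mouse 5 and 0.437 to 3.97 FPKM elsewhere. *Ccl19* and *Ltb* had 16.5 and 23.9 FPKM there, against at most 2.78 and 9.94 FPKM, and *Ccl21a* had 20.5 against at most 6.12 FPKM. The 10 macrophage genes were highest in vehicle mouse 5 for 5 and in rFGF4 mouse 1 for 5, summing to 1854 and 1339.5 FPKM, against 49.3 to 485 FPKM in the other 6.

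The genes that make the repertoire gave little signal. Of 7 genes of the surrogate light chain and of recombination, *Rag2*, *Dntt* and *Vpreb2* were listed at 0 in all libraries, and only 1 was tested. Of 6 genes of class switching and hypermutation, 4 were tested and all 4 were above 0. Their median log2 fold change was 0.19, against 0.09 over all tested genes. *Apex1*, a base excision repair enzyme that most cells express, was the one called, where 1.52% of all tested genes were called. With 1 call in so short a list, nothing is read about the list. *Apex1* had 11.3, 6.40, 6.10 and 5.21 FPKM in rFGF4 mice 1, 2, 3 and 5 against 3.64, 3.97, 4.39 and 5.25 FPKM in vehicle mice 2, 3, 4 and 5. Only rFGF4 mouse 5 lay within the vehicle range, and the difference was 0.59 with a standard error of 0.22 on the log2(FPKM + 1) scale (limma, p = 0.0269, adjusted p = 0.918, exact permutation p = 0.0571). It was not called with array weights (0.51), median ratio scaling (0.48) or the replicate block (0.39), nor without rFGF4 mouse 1 (0.38), vehicle mouse 2 (0.53) or vehicle mouse 3 (0.56).

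Of 10 B cell receptor signaling genes, 9 were tested and 0 called, with 3 above 0 and a median log2 fold change of -0.02. Without vehicle mouse 5, 8 of them were above 0 and the median was 0.33. Of 7 survival ligands and receptors of B cells, 3 were tested and 0 called. Of 12 receptors and carriers of immunoglobulin, 10 were tested and 0 called, with a median of 0.13. *Pigr*, which carries dimeric IgA and IgM across epithelia, had 89.4, 151, 88.5 and 70.3 FPKM in rFGF4 mice 1, 2, 3 and 5, and 99.5, 132.5, 77.8 and 106 FPKM in vehicle mice 2, 3, 4 and 5. *Fcgrt*, the neonatal Fc receptor that protects IgG from degradation, had 56.1, 64.6, 79.5 and 57.0 against 48.7, 64.7, 56.3 and 53.8 FPKM. The levels of *Pigr* and *Fcgrt* were far more even across mice than those of *Igha* and the IgG genes. Their group differences of -0.09 and 0.19 had standard errors of 0.25 and 0.15 on the log2(FPKM + 1) scale. Other genes of this list were less even. *Fcgr3* ran from 1.84 to 49.2 FPKM and *Fcer1g* from 3.80 to 73.3 FPKM, both named after their values were seen.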

How the data were processed

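Total RNA of mouse kidney was made into poly(A) libraries and sequenced in pairs, with 1 library for each of 8 mice. According to the submitters' processing notes, the tools were HISAT2 2.0, Bowtie 0.12.2 and StringTie 1.3.0 with build mm8, though the identifiers are those of a later Ensembl annotation. The authors assembled transcripts per library, merged them and deposited FPKM per gene, in which 0.0001 stands in place of 0. The columns of the authors' edgeR comparison (fold change, its log2, p and q) and the KEGG annotation were not used.

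Groups came from the labels. FPKM was used as deposited, and log2(FPKM + 1) was compared for the 15150 genes that reached 0.5 FPKM in at least 4 libraries, with limma 3.58.1 (R 4.3.3; trend in the prior variance, Benjamini-Hochberg adjustment over all tested genes). The study's test needs counts, so its threshold (p under 0.05, 1.5-fold) was applied to this fit. A difference on this scale understates the change of low genes. A two-sided exact permutation test over the 70 assignments of mice to groups, which cannot give a p below 0.0286, was run for single genes. The procedure was checked on simulated data. No read depth is known, so no counting interval is given, and a value listed at 0 may be a failed estimate.

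Members, gene lists and the naming rule were chosen with earlier results of these data known. The text names every constant gene and *Jchain*, the 3 variable genes of each segment with the highest mean, the leading *Igkv* and *Ighv* gene of each library, the members and rows nearest the threshold, members and listed genes past the test, and set genes of B cells, plasma cells, lymphoid stroma and immunoglobulin transport. Any other gene was named after its values were seen. Single values of a few genes on the lists are not reported here. Positions, types and sequences came from GENCODE M21 (GRCm38), in which 55141 identifiers and all 205 members were found. Identity is 100 minus the edit distance in percent of the longer coding sequence. Shares are of summed FPKM. Alternatives were a pseudocount of 0.1, other filters, other scalings, a robust prior, array weights, a replicate block and the removal of each mouse. Plots were made in Python 3.11.15 with matplotlib 3.10.9.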

Additional observations from a re-analysis of the deposited data

Results flagged for a closer look

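In each group of 4 mice, a value was flagged when its gap to the nearest other mouse, divided by the range of the group, was above Dixon's 95% critical value for 4 values. Genes were examined on the log2(FPKM + 1) scale where the highest value was at least 0.5 FPKM, and shares and effective numbers as they are. Of the 109 groups examined, 18 were flagged, 12 of them in vehicle mouse 5. Chance flags about 1 in 20 groups of genes picked without regard to their values, but many of these genes were named because they led a library or had a high mean, and the genes share reads, cells and mice, so the number of flags cannot be set against chance.

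Vehicle mouse 5 was flagged for *Ighm* (gap 0.870 of the range, 964 FPKM, where vehicle mice 2, 3 and 4 had 2.78 to 6.76), *Ighd* (0.846) and *Ighe* (0.953, 8.92 FPKM against at most 0.114). The heavy variable genes *Ighv1-39* (0.846) and *Ighv1-7* (0.905) were flagged there too, as were *Ighv12-3* and *Igkv4-51*, with a gap of 1 because the other 3 mice were at 0. Those with a gap of 1 were named for a maximum just above 0.5 FPKM, reached in this mouse, so their flags restate the choice of genes. Of the cell markers, *Ms4a1* (0.946) and *Tnfrsf17* (0.877) were flagged in that mouse. Taken without logs, the share of all FPKM held by the immunoglobulin genes had a gap of 0.946. The effective number of genes, also without logs, had a gap of 0.860 for *Igkv* and 0.972 for *Ighv*. These gaps depend on the scale and were not examined on a log scale.

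In the rFGF4 group, mouse 1 was flagged for *Ighe* (0.945), *Ighv1-78* (0.964, 82.4 FPKM) and *Cd79b* (0.961, 2.04 FPKM against 0.472 to 0.514), mouse 2 for *Igkv8-30* (0.921, 40.7 FPKM) and *Ighv10-1* (0.907, 18.6 FPKM), and mouse 5 for *Xbp1* (0.830), where it was the lowest.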

How the results depend on the processing

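The count of 0 called members in limma held under another pseudocount, no filter or a looser filter, both scalings, a robust prior and array weights. It changed to 10 higher without vehicle mouse 5 and to 1 lower (*Ighv6-3*, where 0.416% of all tested genes were called lower) without vehicle mouse 4, so leaving out mice gave 0 to 10 higher and 0 to 1 lower. The median log2 fold change of the tested members was 0.01 with a pseudocount of 0.1, 0.52 with array weights, and -1.10 to 0.92 with each mouse left out. The log2 ratio of the group medians of summed FPKM was 0.09, and -0.85 to 3.81 with each mouse left out, the highest without vehicle mouse 3 or 5.

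None of the 10 tested constant genes, nor *Jchain*, was called under any alternative, and their signs were not stable. With array weights, *Ighm* was 1.10, *Ighg1* 0.80, *Ighg2b* 0.68, *Ighg2c* 1.08, *Ighg3* 0.50, *Iglc2* 1.03 and *Iglc3* 0.295, *Mzb1* 0.033 and *Pigr* 0.16. With a pseudocount of 0.1, *Ighm* was 0.012 and *Ighg2c* 0.0032. At a common sum without the members, *Ighm* was 0.12 and *Pigr* 0.105. Leaving out each mouse gave -1.23 to 2.07 for *Igkc*, -0.75 to 2.47 for *Igha*, -0.88 to 1.83 for *Ighm*, -1.65 to 1.02 for *Ighg1*, -1.92 to 1.05 for *Ighg2b*, -1.56 to 1.17 for *Ighg2c*, -1.14 to 0.99 for *Ighg3*, -0.73 to 2.11 for *Iglc1*, -0.99 to 1.16 for *Iglc2*, -1.74 to 0.59 for *Iglc3* and -0.92 to 1.79 for *Jchain*. For other genes the ranges were -0.063 to 0.98 for *Sdc1*, -0.31 to 0.053 for *Pigr*, -1.24 to 0.38 for *Cd79a* and -1.03 to 0.19 for *Cd79b*. The cause was not tested.

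The shared mouse numbers were not taken as pairs. The deviations of same-numbered mice from their group means correlated at -0.23, -0.16 and -0.39 over genes (numbers 2, 3 and 5). These values cannot show whether same-numbered mice shared a cage or batch, because single mice with much immune RNA weigh on them. With a replicate block for the mouse numbers, rFGF4 mouse 1 and vehicle mouse 4 did not enter the differences, as their numbers occur in 1 group only. The block fit thus rests on mice 2, 3 and 5 of each group. In it, 2 members (*Igkv14-130* and *Igkv9-124*) were called lower, against 0.528% of all tested genes. The median was -1.42, with *Igkc* at -2.01, *Igha* at -1.42, *Iglc1* at -1.52, *Jchain* at -1.62 and *Sdc1* at -0.33.

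The depth of the libraries and the counting error of low values are unknown, and values below 0.5 FPKM, such as most of those in vehicle mice 2 and 4, carry little weight. With a median standard error of 1.38 on the log2(FPKM + 1) scale, small group differences of these genes could not be seen.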
